A study of Mus musculus with 4 samples.

Results

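Nuclear import and the Ran cycle were represented on these liver arrays by 9 of the 10 genes sought, through 13 probe sets out of the 12422 that are not array controls. The 10 genes were Kpna1, Kpna2, Kpna3, Kpnb1, Ran, Ranbp1, Rangap1, Xpo1, Nup62 and Nup155. A probe set was taken where the platform's annotation lists a member as its single gene symbol, whatever its values. Nup155 had no such probe set and has no value here. Liver RNA came from male B6SJL hybrid mice aged 50 to 66 days, which had eaten a diet of 65% protein and 10% carbohydrate for 4 weeks after weaning. The wild-type group carried no transgene. The PEPCK-TAg group carried one for the SV40 oncoproteins, large T together with small t (LT/st), and its name gives the promoter as that of the PEPCK gene. That promoter is active in hepatocytes and is raised by protein-rich food. Each group had 2 Affymetrix MG_U74Av2 arrays, and nothing in the labels ties the 2 arrays of a group to separate animals. Each p-value therefore measures the spread between these arrays, which may be technical. The labels do not say whether the transgenic mice came from 1 founder line, and the transgene itself was not analysed here.

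Proteins enter the nucleus through nuclear pores built of nucleoporins. An importin alpha adaptor binds the cargo's nuclear localisation signal, and importin beta carries the pair through the pore. Inside, the small GTPase Ran in its GTP form releases the cargo, and export receptors such as Xpo1 leave with Ran-GTP and a cargo bearing an export signal. Outside, Rangap1 and its cofactor Ranbp1 make Ran hydrolyse GTP, which keeps Ran-GTP high in the nucleus. In mitosis the same proteins guide spindle assembly. SV40 large T carries a classical localisation signal that importin alpha recognises.

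Of the 13 probe sets, 10 were tested, and each of these lay above the filter level (a signal of 41.3) on all 4 arrays. None passed the filter through the higher group alone. Ranbp1 was the member that rose, 4.01-fold. Kpna2 stood 2.33-fold higher and Xpo1, Kpnb1, Nup62 and Ran 1.36-fold to 1.89-fold higher without passing the test, and Kpna1, Kpna3 and Rangap1 stood between 0.908-fold and 1.21-fold. In limma's moderated test 1 of the 10 passed a Benjamini-Hochberg adjusted p of 0.05 over the 7877 probe sets tested. Of these 12.5% passed, 9.1% higher and 3.4% lower in PEPCK-TAg liver, so the share of members called was near that of the array as a whole. In 8 of the 10 the arrays of one group lay wholly to one side of the other's, 7 higher and 1 lower in PEPCK-TAg liver, against 59.8% of all probe sets tested, 33.3% higher and 26.5% lower. Differences of 2-fold or more without overlap were found in 2 of the 10, both higher, against 20.5% of all, 14.7% higher and 5.87% lower. The median log2 difference of the 10 was 0.54, beside 0.051 over all probe sets tested, and 9 of the 10 lay above 0, beside 53.1%. Quantile normalization moved the median of all probe sets tested by -0.14 and left the members' median at 0.54 with 7 of the 10 above 0. The 2 further probe sets that it put below 0 were those of Rangap1.

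**Figure D1:**
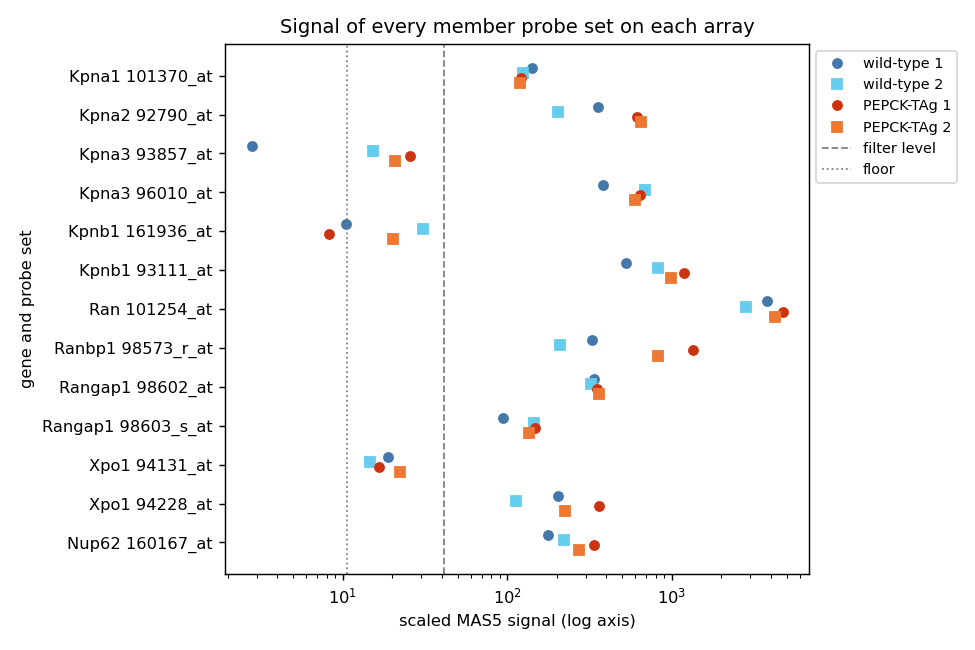
Scaled signal of each of the 13 member probe sets on the 4 arrays, on a log axis, with the filter level of 41.3 dashed and the floor of 10.6 dotted. Ranbp1 on both PEPCK-TAg arrays lay to the right of both wild-type arrays by a wide margin, and the second probe sets of Kpna3, Kpnb1 and Xpo1 lay below the filter level throughout.

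Among the arrays, the median signal ran from 66.6 to 84.7, and 58.1% to 62.8% of probe sets lay above the filter level. The ratio of 3' to 5' actin control signals, a sign of RNA quality, ran from 3.14 to 4.33 with overlap between the groups. That of Gapdh ran from 2.90 to 5.35, also with overlap, and PEPCK-TAg 2 had the lowest ratio of both controls. Wild-type 1, PEPCK-TAg 1 and PEPCK-TAg 2 were read on 1 scanner type and wild-type 2 on another, PEPCK-TAg 2 was washed on a fluidics station of its own, and wild-type 1 and PEPCK-TAg 1 were scanned on 1 day. The PEPCK-TAg arrays shared a chip lot that no wild-type array had, so lot and group cannot be told apart. The labelled tissue was borne out by albumin (Alb), whose signal ran from 9379 to 17286. Markers of other cells moved with the groups. Of 15 markers of cycling cells tested, 14 rose. The list's summed signal was 1440 to 1784 on the wild-type arrays and 13746 to 15705 on the PEPCK-TAg arrays. Sums, here and below, cover every probe set of a list's genes under a single gene symbol, tested or not. Of 16 myeloid markers 9 rose, with sums of 2528 to 2531 against 8791 to 11963, although Itgam and Marco stayed at or below the floor on every array. Of 10 erythroid markers 6 rose, with sums of 4007 to 4430 against 10898 to 14968. Of 12 hepatocyte markers 3 fell, with sums of 98830 to 102694 against 58469 to 71600. Of the cycling markers that rose, Mki67, Cdk1, Rrm2, Top2a, Birc5 and Bub1 passed the filter through the PEPCK-TAg arrays alone. So did the myeloid markers S100a9, Ngp, S100a8, Mpo, Lgals3 and Ptprc, the erythroid markers Hemgn and Epb42, and the biliary marker Cldn7. The counts of markers that rose therefore describe what passed the filter. Over all 5954 genes tested, 567 rose and 196 fell, or 12.8% together. Markers of lymphocytes (0 higher and 1 lower of 4, with Cd3g and Cd8a at or below the floor), endothelial cells (0 of 8), stellate cells and fibroblasts (1 higher of 5) and biliary cells (1 higher of 1, with Krt19 at or below the floor) completed the check. The part of these cells in the values of the transport genes was not tested, and in whole liver RNA fewer cells of a type and less RNA per cell cannot be told apart.

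None of the importin alpha adaptors passed the test, and Kpna2 came nearest to the threshold. This adaptor is known as the member of its family most tied to dividing cells. Its probe set read 358 and 205 without the transgene and 615 and 647 with it (replicate 1 first in each group, here and below). The PEPCK-TAg arrays nearly coincided, and both lay above the higher wild-type array, while the wild-type arrays differed 1.75-fold from each other. The log2 difference was 1.22 ± 0.32 (SE, 95% interval 0.46 to 1.99, with n = 2 arrays in each group throughout). Its limma adjusted p was 0.0547, so Kpna2 did not pass the threshold, though 11.4% of all probe sets tested had a higher log2 difference. The difference turned on the wild-type array used: without wild-type 1 it was 1.62, and without wild-type 2 it was 0.82. With a lone wild-type array the spread comes from the PEPCK-TAg arrays, which nearly coincided, so no p-value is given for these fits. Kpna2 passed with a pseudocount in place of the floor (adjusted p = 0.0467 in limma) and with a filter at the 60th percentile (0.0461). It did not pass under quantile normalization (limma adjusted p = 0.082) or with no filter on dim probe sets (0.23). Of 16 alternative settings 4 gave a pass, these among them.

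The bases before the start of Kpna2 are shown because this gene and Ranbp1 stood furthest from wild-type. They are credited to RefSeq (GRCm38.p6, chr11:106999526-106999775, minus strand) and run 5′ to 3′ up to the base before the annotated start. Capitals mark a match to the cell cycle homology region (CHR), which the repressor complex DREAM is known to bind, and one to CCAAT, the site of the factor NF-Y.
Kpna2: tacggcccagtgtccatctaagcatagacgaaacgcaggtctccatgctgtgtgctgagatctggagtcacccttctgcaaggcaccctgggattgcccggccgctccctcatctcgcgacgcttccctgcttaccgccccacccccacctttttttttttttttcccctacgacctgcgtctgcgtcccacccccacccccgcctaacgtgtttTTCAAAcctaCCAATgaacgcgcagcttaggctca
The CHR letters searched were TTTGAA on either strand, and here they stood on the opposite strand at 35 to 30 bases before the start, with CCAAT at 25 to 21. TTTGAA was present in 16% of 32851 promoter windows of the same length and CCAAT in 33.8%.

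Kpna1 and Kpna3 encode adaptors of the other subfamilies, found in most tissues. Kpna1 read 141 and 124 without the transgene and 121 and 119 with it. Both PEPCK-TAg arrays lay just below the wild-type arrays, and this was the sole member lower in PEPCK-TAg liver, with a log2 difference of -0.14 ± 0.28 SE (95% interval -0.80 to 0.53, limma adjusted p = 0.768). The brighter Kpna3 probe set read 381 and 690 without the transgene and 647 and 600 with it. The groups overlapped, since wild-type 2 gave the highest value of the 4, and the log2 difference of 0.28 ± 0.33 SE (95% interval -0.50 to 1.06, limma adjusted p = 0.601) turned to -0.15 without wild-type 1. The second Kpna3 probe set read 2.80, 15.4, 25.9 and 20.8 in the same order, below the filter level on every array, and was not tested. The log2 ratio of Kpna2 to Kpna1 on the same array, a pair chosen after the values were seen, was higher in PEPCK-TAg liver by 1.36 (SD of the ratio 0.44 in wild-type and 0.069 in PEPCK-TAg liver), with no overlap. For Kpna2 over Kpna3 it was higher by 0.94, with an SD of 1.18 between the wild-type arrays, larger than the difference. These were 2 of 4 such ratios computed. Each gave an exact two-sided permutation p of 0.333, the smallest that 2 against 2 arrays allow, and 0.333 after Benjamini-Hochberg adjustment over the 4, so these arrays cannot show by this test that the adaptors changed unequally.

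Kpnb1 encodes importin beta, the carrier that takes the adaptor and its cargo through the pore. Its brighter probe set read 527 and 821 without the transgene and 1183 and 992 with it. Both PEPCK-TAg arrays lay above wild-type 2, the higher wild-type array, and the log2 difference was 0.72 ± 0.29 SE (95% interval 0.029 to 1.41). With a limma adjusted p of 0.152 it did not pass, although its unadjusted p was 0.0434. The value rested on the wild-type array used: without wild-type 2 the log2 difference was 1.04, and without wild-type 1 it was 0.40. With scanner type as a block, which sets wild-type 2 apart, it was also 1.04. The second Kpnb1 probe set read 10.5, 31.0, 8.29 and 20.4 (wild-type, then PEPCK-TAg), below the filter level throughout and at or below the floor on replicate 1 of both groups, and has no test.

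Ran, the GTPase itself, had the highest signals of the members, though signals of different probe sets do not compare abundance. It read 3808 and 2830 without the transgene and 4730 and 4237 with it. The groups did not overlap, with wild-type 1 close below PEPCK-TAg 2, and the log2 difference was 0.45 ± 0.24 SE (95% interval -0.13 to 1.03, limma adjusted p = 0.266). Under quantile normalization the log2 difference of Ran was 0.89 (limma adjusted p = 0.0558). A further probe set lists Ran together with another symbol, Rasl2-9, a near-identical relative, and was left out by the rule. The Ran promoter is shown as that of a member that did not pass the test, at GRCm38.p6 chr5:129019906-129020155, plus strand (RefSeq). Capitals mark a match to the NRF1 motif (GCGCA joined to its own reverse complement), found in 0.782% of promoter windows, and one to the E-box CACGTG, the site of MYC and related factors, found in 6.02%.
Ran: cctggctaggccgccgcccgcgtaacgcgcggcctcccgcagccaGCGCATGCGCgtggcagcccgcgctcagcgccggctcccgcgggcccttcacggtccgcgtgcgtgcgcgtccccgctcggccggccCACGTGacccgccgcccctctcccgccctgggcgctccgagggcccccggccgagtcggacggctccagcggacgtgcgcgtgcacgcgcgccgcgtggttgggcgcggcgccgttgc

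Ranbp1, the cofactor that helps Rangap1 act on Ran-GTP in the cytoplasm, rose in PEPCK-TAg liver. Its probe set read 329 and 210 without the transgene and 1349 and 826 with it. Even the lower PEPCK-TAg array lay far above both wild-type arrays, and the spread was alike within the groups, 1.57-fold between the wild-type and 1.63-fold between the PEPCK-TAg arrays. The log2 difference was 2.0 ± 0.35 SE (95% interval 1.17 to 2.84), with a limma adjusted p of 0.0150. Of all probe sets tested, 4.89% had a higher log2 difference. Within the pair scanned on 1 day the log2 difference of Ranbp1 was 2.03. The call was lost without PEPCK-TAg 1 (log2 difference 1.65, limma adjusted p = 0.13) and without PEPCK-TAg 2 (2.36, 0.0576), where the lone array left is assumed to vary like the wild-type pair, and with no filter on dim probe sets (limma adjusted p = 0.161). It was also lost once the fluidics station was made a block (0.175), which sets PEPCK-TAg 2 apart and so gives the same difference as leaving it out. The probe set carries the suffix r, which Affymetrix gives to sets whose probes were picked under relaxed rules, and no other Ranbp1 probe set was on the array.

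The Ranbp1 promoter is shown because this gene passed the test and its window held the most kinds of match among the members. The bases printed lie between the annotated starts of Ranbp1 and of its neighbour Trmt2a (RefSeq, GRCm38.p6, chr16:18248695-18248846, minus strand), 152 in all. Capitals mark, from left to right, the E2F motif GGCGGGAA, CCAAT, the CHR letters TTTGAA, and the E2F motif on the opposite strand, TTCCCGCC.
Ranbp1: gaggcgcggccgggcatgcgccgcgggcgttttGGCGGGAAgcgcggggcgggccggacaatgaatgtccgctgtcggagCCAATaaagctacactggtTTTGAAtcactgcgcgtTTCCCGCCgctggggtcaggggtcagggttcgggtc
E2F factors are the partners that the pocket proteins hold in check, and large T binds the pocket proteins. GGCGGGAA, searched on both strands in the 250 bases before the start, was present in 1.86% of the 32851 windows and in 1 of the 8 member promoters in the sequence table, that of Ranbp1, where it stood at 119 to 112 and at 36 to 29 bases before the start. TTTGAA was present in 2 of the 8, Ranbp1 and Kpna2, and CCAAT in 6 of the 8. A match is a description of letters and not a measured site, and none of these arrays measured binding.

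**Figure D2:**
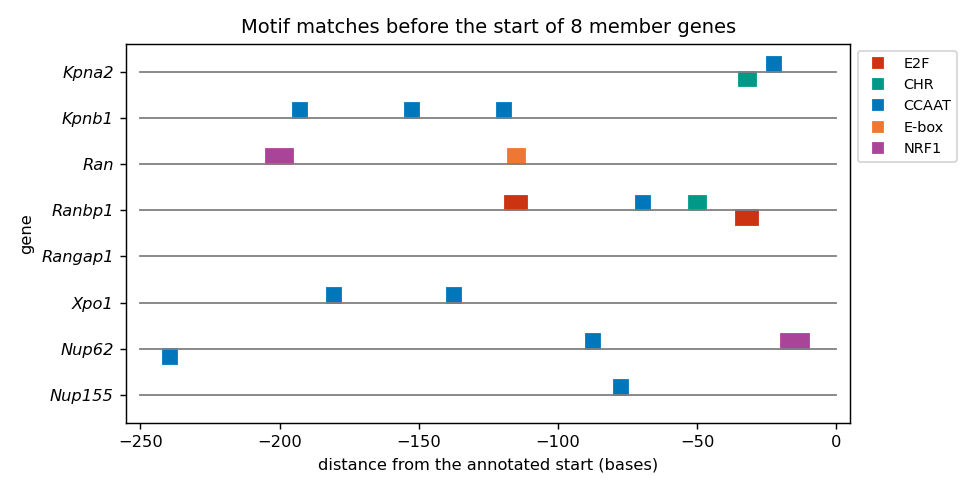
Positions of the 5 motifs in the 250 bases before the annotated start of the 8 member genes in the sequence table, with boxes above the line for matches on the gene's own strand and below it for the opposite strand. Ranbp1 holds 2 E2F matches, 1 CHR match and 1 CCAAT match, Kpna2 holds 1 CHR and 1 CCAAT match, and Rangap1 holds none.

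Trmt2a, a tRNA methyltransferase gene that RefSeq places next to Ranbp1 with its start within the 250 bases searched, read 329 and 245 without the transgene and 394 and 377 with it. Its log2 difference was 0.44 ± 0.26 SE (limma adjusted p = 0.307), beside 2.0 for Ranbp1, and the difference between these neighbours was not tested.

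Rangap1 encodes the activator that makes Ran hydrolyse GTP, and part of it is held at the pore after SUMO is attached. Its first probe set gave nearly the same signal on every array, 337 and 324 without the transgene and 351 and 363 with it. The log2 difference was 0.11 ± 0.24 SE (95% interval -0.45 to 0.68, limma adjusted p = 0.779), so a change of 2-fold in either direction lay outside the interval. The second, whose suffix s marks probes shared with other transcripts, read 95.1 and 145 against 147 and 136. There wild-type 1 stood apart below the other 3 arrays, the groups overlapped, and the log2 difference was 0.27 ± 0.32 SE (95% interval -0.50 to 1.04, limma adjusted p = 0.609). Both log2 differences of Rangap1 fell just below 0 under quantile normalization (-0.043 and -0.010). The log2 ratio of Ranbp1 to Rangap1 (first probe set) on the same array was higher in PEPCK-TAg liver by 1.89 (SD 0.42 in wild-type and 0.53 in PEPCK-TAg liver), and that of Ranbp1 to Ran by 1.56 (SD 0.16 and 0.39). Neither ratio overlapped between the groups, and both had the exact permutation p of 0.333 given above.

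Xpo1 (CRM1), the receptor that exports proteins with a leucine-rich signal together with Ran-GTP, read 203 and 113 without the transgene and 363 and 225 with it. Both groups were spread widely, 1.80-fold and 1.62-fold, and PEPCK-TAg 2 lay only a little above wild-type 1. The log2 difference was 0.92 ± 0.39 SE (95% interval -0.021 to 1.85), with a limma adjusted p of 0.172. The log2 difference of Xpo1 was 1.34 without wild-type 1 and 0.49 without wild-type 2. The second Xpo1 probe set read 18.9 and 14.6 without the transgene and 16.6 and 22.4 with it, below the filter level throughout, and showed no such order.

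Nup62, a nucleoporin of the central channel that importin beta touches on its way through, read 177 and 221 without the transgene and 339 and 275 with it. Both PEPCK-TAg arrays lay above both wild-type arrays, and the spread within each group was small, 1.25-fold and 1.23-fold. The log2 difference was 0.63 ± 0.27 SE (95% interval -0.026 to 1.28, limma adjusted p = 0.179).

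**Figure D3:**
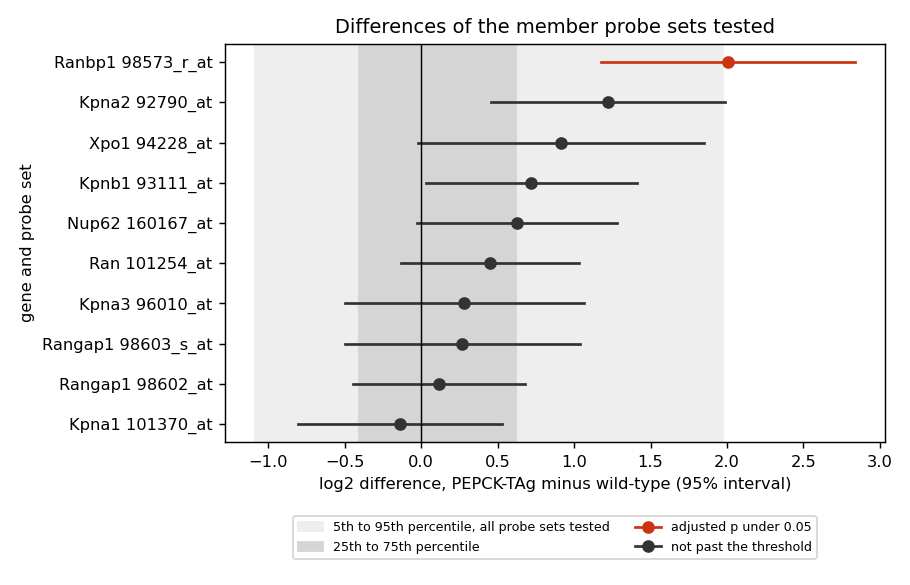
Log2 difference (PEPCK-TAg minus wild-type) of the 10 member probe sets tested, with limma's 95% intervals, over the range of all 7877 probe sets tested (light band, 5th to 95th percentile, -1.09 to 1.98; dark band, 25th to 75th). Ranbp1 at 2.0 lies at the upper edge of the light band, and Ran, Kpna3, Rangap1 and Kpna1 lie inside the dark band.

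The arrays within a group did not order the members alike. Wild-type 1 read higher than wild-type 2 for Kpna1, Kpna2, Ran, Ranbp1, Xpo1 and the first Rangap1 probe set, and lower for Kpnb1, Nup62, the brighter Kpna3 probe set and the second Rangap1 probe set. In the pair scanned on 1 day the median log2 difference of the 10 was 0.77, beside 0.029 over all probe sets tested, with Kpnb1 at 1.17, Nup62 at 0.94, Xpo1 at 0.84, Kpna2 at 0.78 and Ran at 0.31. Kpna1 was at -0.22 in that pair.

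Other genes of nuclear transport and its surroundings were read from 9 lists, which were chosen with earlier results of these data known. Of the 53 genes tested, each by its brightest probe set, 13 rose and none fell, or 24.5%, beside 12.8% of all 5954 genes tested, and their median log2 difference was 0.54 beside 0.073. Of the 13, Nup188, Nusap1 and Aurka read under the filter level of 41.3 in both wild-type samples. These 3 passed the filter through the PEPCK-TAg arrays alone. Spindle-related factors gave 3 of the 13 calls. The 24.5% is thus a description of what was tested and not of the lists as a whole. No excess over the 12.8% can be drawn from lists chosen in this way. Most of the calls were lost with 1 PEPCK-TAg array left out, where the spread comes from the wild-type pair. Without PEPCK-TAg 1 the calls that remained were Alyref and Lbr, and without PEPCK-TAg 2 that of Lbr, with 10 of the 13 still tested in each case. The differences themselves moved little in Cse1l (1.38 and 1.24 with PEPCK-TAg 1 or 2 left out) and Nup93 (2.07 and 1.95). They moved more in Ipo5 (1.26 and 1.76), Sae1 (1.33 and 1.78) and Alyref (2.36 and 1.80). With fluidics station as a block, 0 of the 13 remained, with no filter on dim probe sets 2 (Nup188 and Lbr), and under quantile normalization 10 of the 12 still tested.

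Among carriers that are not members, 2 passed, Cse1l and Ipo5. Cse1l, the exportin that returns importin alpha to the cytoplasm, read 121 and 89.2 against 246 and 271, a rise of 2.48-fold (log2 difference 1.31 ± 0.29 SE, limma adjusted p = 0.0326). It was 1 of 4 export receptors tested, whose median log2 difference was 0.0029. Ipo5, an importin known to carry ribosomal proteins and histones, read 231 and 134 against 598 and 423 and rose 2.86-fold (1.51 ± 0.35 SE, limma adjusted p = 0.0378). Its second probe set gave 1.19 ± 0.34 SE and did not pass (limma adjusted p = 0.0690). Ipo5 was 1 of 8 import receptors of the importin beta family tested, whose median log2 difference was -0.043. Both calls were lost under quantile normalization (Cse1l at 1.06 with a limma adjusted p of 0.0656, Ipo5 at 1.31 with 0.0642) and with scanner type as a block (Cse1l at 1.09 with 0.0771, Ipo5 at 1.12 with 0.0606). The call of Ipo5 was also lost with a floor at the 40th percentile (limma adjusted p = 0.0564) and without the eBayes trend (0.0570), at the same difference. Of the adaptors outside the members, Kpna6 gave 0.20 ± 0.28 SE (limma adjusted p = 0.666), which quantile normalization took to -0.070, and Kpna4 read 2.20 to 15.9 and was not tested. Rcc1, the chromatin-bound exchange factor that loads Ran with GTP, read 63.2 and 106 against 75.3 and 125, with overlap (log2 difference 0.25 ± 0.41 SE, limma adjusted p = 0.716). Nutf2, which brings Ran back into the nucleus, and Ranbp2 of the pore's cytoplasmic filaments had no value in this comparison.

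Of 13 nucleoporins tested, 3 rose and none fell, beside 12.8% of all genes tested called in either direction. Their median log2 difference was 0.59, beside 0.073 over all genes tested. Of the 13, 12 lay above 0, beside 53.1% of all probe sets tested. The same shares stand beside the counts of the lists that follow. Nup85, of the Y-shaped scaffold complex, rose 2.59-fold, from 209 and 239 to 630 and 532 (log2 difference 1.37 ± 0.25 SE, limma adjusted p = 0.0170). Its second probe set also passed, at 1.62 ± 0.28 SE. Nup93, of the inner ring, read 41.9 and 30.4 against 138 and 150 and rose 4.03-fold (2.01 ± 0.34 SE, limma adjusted p = 0.0140). Its wild-type signals lay around the filter level. With a floor at the 40th percentile its log2 difference was 1.79, which still passed (limma adjusted p = 0.011). Nup188, the partner of Nup93 there, read 8.91 and 8.80 without the transgene, below the floor, and 47.0 and 45.1 with it. Nup188 was thus at least 4.35-fold higher (limma adjusted p = 0.0337), at signals barely above the filter level, and it passed the filter through the PEPCK-TAg arrays alone. With the floor raised to that level its log2 difference was 0.16 (limma adjusted p = 0.552), and with scanner type as a block it did not pass (0.0607). Of 5 factors of bulk mRNA export tested 1 rose, Alyref, an adaptor that hands mRNA to the export receptor, at 4.23-fold (2.08 ± 0.30 SE, limma adjusted p = 0.00771), and the list's median was 0.74.

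Of 9 genes of the lamina and nuclear envelope tested, 3 rose, with a median of 0.89. Lbr, the lamin B receptor of the inner membrane, read 138 and 134 against 771 and 682, a rise of 5.33-fold (2.41 ± 0.24 SE, limma adjusted p = 0.00236), which also held with either PEPCK-TAg array left out. Tmpo, which encodes the LAP2 proteins that bind lamins and chromatin, rose 2.87-fold (1.52 ± 0.27 SE), with a second probe set at 0.87 that did not pass (limma adjusted p = 0.0868). Lmna, the A-type lamin gene, rose 2.38-fold (1.25 ± 0.21 SE) by a probe set whose suffix s marks probes shared with other transcripts. Its second probe set, without that suffix, gave -0.24 ± 0.37 SE (limma adjusted p = 0.702). Of 7 genes of SUMO conjugation tested 1 rose, Sae1 of the activating enzyme, at 2.94-fold (1.55 ± 0.28 SE, limma adjusted p = 0.0170), with a median of 0.17. Of 4 spindle-related factors tested, some of them known cargoes that importins hold until Ran-GTP frees them, 3 rose, with a median of 3.11: Nusap1 at 20.9-fold, Aurka at 12.4-fold and Brca1 at 6.05-fold. Nusap1 (37.2 and 21.4) and Aurka (20.1 and 24.5) read under the filter level of 41.3 in both wild-type samples and were tested because they were high in PEPCK-TAg liver, so the list's count and median describe what passed the filter. A second Nusap1 probe set gave 3.83-fold (1.94 ± 0.57 SE) and did not pass (limma adjusted p = 0.0735). Numa1 gave 0.32 ± 0.24 SE (limma adjusted p = 0.414). Nusap1, Aurka and Brca1 are also genes of dividing cells, whose markers rose as given above. The part of dividing cells in the values of these 3 genes was not tested.

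**Figure D4:**
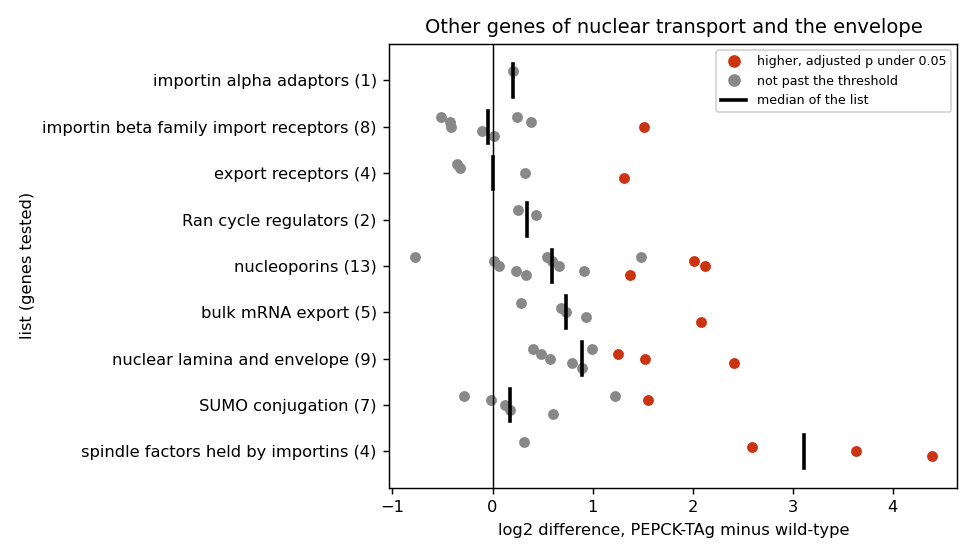
Log2 difference (PEPCK-TAg minus wild-type) of each other transport and envelope gene tested, by list, with 1 point per gene, red where limma's adjusted p was under 0.05, and the list's median as a bar. The 3 called spindle factors lie furthest to the right, and the import and export receptors centre near 0 with 1 called gene each.

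For Kpna2, Ran and Kpnb1 the genes with the most similar pattern were sought among 6984 other named probe sets tested, by the mean absolute distance between their 4 log2 values after each was centred on its own mean. For Kpna2 they were Zfp54 (a distance of 0.019 on the log2 scale), Fgl2 (0.061) and Cebpd (0.062). For Ran they were Fcna (0.012), Trmt2a (0.025) and Thumpd3 (0.027), and for Kpnb1 Crat (0.035), Mtmr7 (0.048) and Bcas2 (0.050). With 4 arrays and so many probe sets close matches are plentiful. None of these 9 genes passed limma's test (adjusted p from 0.0926 to 0.358). They were picked for values close to those of members that did not pass, so this adds no separate information.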

How the data were processed

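Total liver RNA of 2 wild-type and 2 PEPCK-TAg samples was hybridised to 1 Affymetrix MG_U74Av2 array each. The deposited value of a probe set is a linear intensity, made with MAS5 per the submitters' processing notes (version not given in the sources used here). Linear scaling equalises means, not distributions, and signals lose meaning near background. Detection calls were not used here. The number of arrays limits the precision.

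One factor per array brought the trimmed means (2% trim, 66 controls left out) to their common mean, a change of -0.102% to 0.0913%. Values under the 20th percentile over all arrays (10.6) were set to it before taking log2. The filter asked for 2 or more of the 4 arrays above the 40th percentile (41.3), which left 7877 of 12422. PEPCK-TAg was compared with wild-type in limma 3.58.1 under R 4.3.3 (lmFit, eBayes with an intensity trend, two-sided, no block), with Benjamini-Hochberg adjustment over all probe sets tested and a threshold of 0.05. SEs and intervals are limma's moderated ones (6.60 degrees of freedom). The fit was tested on simulated data. A fold against a group wholly at the floor is a lower bound.

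Gene symbols came from GEO's platform annotation: 10833 have 1 gene symbol, 396 several and 1193 none. Promoter sequences came from RefSeq (GRCm38.p6), which held 8 of the 10 members. Members and lists were chosen with earlier results of these data known. Every member probe set is given. From each related list up to 3 called genes with the smallest p are named, and Cse1l, Rcc1, Nutf2, Kpna4, Kpna6 and Ranbp2 whatever their values. Trmt2a, Numa1 and second probe sets of related genes were added after their values were seen. The alternatives tried concerned scaling, floor, pseudocount, filter, each array left out, blocks (replicate number, fluidics station, scanner type), the eBayes settings and the mean over a gene's probe sets.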

Additional observations from a re-analysis of the deposited data

How the results depend on the processing

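The direction of the log2 difference was kept in 155 of 159 recomputed values of the 10 member probe sets tested. Ranbp1 stayed between 1.65 and 2.36 and passed in 12 of 16 settings, Kpna2 between 0.82 and 1.62 and passed in 4, and Kpnb1 and Xpo1 passed in 2 each. Among these passes were fits with a lone wild-type array, where the spread comes from the PEPCK-TAg pair. The signs that turned were those of Kpna3 without wild-type 1 (-0.15), of Rangap1 under quantile normalization (-0.043 and, for the second probe set, -0.010) and of that second probe set without wild-type 1 (-0.035). They also turned for Kpna6 under quantile normalization (-0.070) and for Rcc1 without wild-type 1 (-0.12), without PEPCK-TAg 2 (-0.12) and under the station block (-0.12). Without one or the other wild-type array the values were -0.15 and 0.71 for Kpna3, -0.035 and 0.57 for that Rangap1 probe set and -0.12 and 0.62 for Rcc1. The cause was not tested. Leaving out an array also changed which probe sets passed the filter.

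The number of member probe sets called was 1 over the 4 arrays. It was 2 with a pseudocount in place of the floor, 2 with a filter at the 60th percentile and 2 with scanner type as a block. It was 0 with no filter (2 at an unadjusted p under 0.05 in limma) and 0 under the station block (1 at an unadjusted p under 0.05). With an array left out it ranged from 0 to 3. The labels do not say that a replicate number marks a shared batch. The replicate 1 arrays shared scan day, scanner type and fluidics station, the replicate 2 arrays none of these, and deviations of same-numbered arrays correlated at 0.25. With the replicate number as a block 3 members passed, Kpna2 (limma adjusted p = 0.0128) and Xpo1 (0.0300) besides Ranbp1, and 1873 probe sets against 985. Over the whole array 165 probe sets passed with no filter, 0 with the fluidics station as a block (1432 at an unadjusted p under 0.05), and 145 to 1696 with an array left out.

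Of the related genes, 13 passed over the 4 arrays, 2 with no filter, 0 with the station as a block and 1 to 17 with an array left out. Their median log2 difference, 0.54, was 0.34 under quantile normalization, 0.44 with a floor at the 40th percentile, 0.45 with the pseudocount, 0.46 with no filter, 0.44 with a filter at the 60th percentile and 0.45 to 0.60 with an array left out. Scan day as a block leaves no residual degrees of freedom, and chip lot as a random block could not be fitted.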
